A study of Homo sapiens with 8 samples.

Results

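The 6 genes that encode the main subunits of protein kinase A (PKA), 4 regulatory (PRKAR1A, PRKAR1B, PRKAR2A, PRKAR2B) and 2 catalytic (PRKACA, PRKACB), were followed in 2 human osteosarcoma cell lines. All 6 were listed in both lines, out of 13703 genes listed in either. The family was chosen by measured values, because PRKAR2A mRNA was higher in 143B cells labelled sgNAT10 and higher over both lines, so those values are given as a description without a test. The groups were 143B cells carrying a guide RNA against NAT10 (sgNAT10), 143B control cells (NC), HOS cells labelled sgNAT10 and HOS control cells (NC), with 2 libraries each and 8 in all. NAT10 is the enzyme that places N4-acetylcytidine on RNA, and the study describes the guide-carrying cells as knockout cells. 143B is a derivative of HOS, so the lines share their origin. The labels give neither the guide sequence nor whether a group was a pool or a single clone, and nothing states that the paired libraries are separate cultures, so the p-values measure a spread between libraries that may be technical. mRNA levels are in FPKM, fragments scaled to transcript length and to the mapped fragments of a library, which allows levels of different genes to be compared per length.

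PKA is the main receptor for cyclic AMP (cAMP) in animal cells. Without cAMP, a dimer of regulatory subunits holds a pair of catalytic subunits inactive, and binding of cAMP to the regulatory subunits sets the catalytic subunits free to phosphorylate enzymes, channels and transcription factors such as CREB. Type I holoenzymes contain PRKAR1A or PRKAR1B and are largely cytosolic, whereas type II holoenzymes contain PRKAR2A or PRKAR2B and are held at membranes and organelles by A-kinase anchoring proteins. In bone-forming cells the pathway carries the signal of parathyroid hormone, and in mice loss of Prkar1a in these cells has been tied to bone tumours.

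A promoter window is shown for PRKAR2A and PRKACA, the members that the results turn on, and for PRKAR1A. The reason is that CREB, a substrate of PKA, binds the cAMP response element TGACGTCA and its half-site TGACG. PRKAR2A has 1 RefSeq start site, PRKACA 2 and PRKAR1A 5. The windows shown for PRKACA and PRKAR1A were picked among these and hold a site, and the other PRKACA window holds none. Each sequence runs from 250 bases before to 25 bases after a RefSeq start site (GRCh38.p14), read 5′ to 3′ on the strand of the gene, with TGACG or its reverse complement CGTCA in capitals.
PRKAR2A, chr3:48847850-48848124, minus strand: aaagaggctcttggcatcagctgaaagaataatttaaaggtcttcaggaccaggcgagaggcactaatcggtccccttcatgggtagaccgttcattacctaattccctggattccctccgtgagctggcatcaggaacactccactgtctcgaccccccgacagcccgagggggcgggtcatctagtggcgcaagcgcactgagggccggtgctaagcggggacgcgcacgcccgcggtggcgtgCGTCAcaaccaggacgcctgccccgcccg
PRKACA, chr19:14117738-14118012, minus strand: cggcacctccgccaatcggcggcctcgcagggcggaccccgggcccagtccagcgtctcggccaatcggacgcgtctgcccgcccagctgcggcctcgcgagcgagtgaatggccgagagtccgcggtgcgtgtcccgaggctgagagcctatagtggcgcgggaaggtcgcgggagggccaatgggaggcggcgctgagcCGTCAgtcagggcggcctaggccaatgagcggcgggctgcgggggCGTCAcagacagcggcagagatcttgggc
PRKAR1A, chr17:68512180-68512454, plus strand: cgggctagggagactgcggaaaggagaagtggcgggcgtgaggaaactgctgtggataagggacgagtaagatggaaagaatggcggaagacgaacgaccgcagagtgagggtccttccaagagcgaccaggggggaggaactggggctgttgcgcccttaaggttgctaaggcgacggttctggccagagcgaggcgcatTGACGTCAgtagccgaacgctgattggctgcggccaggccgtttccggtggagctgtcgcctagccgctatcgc
The half-site stood at bases -4 to 1 from the start of PRKAR2A, and at -49 to -45 and again at -4 to 1 in PRKACA, while the PRKAR1A window held the full TGACGTCA, whose second half-site ran from -46 to -42. RefSeq gave 20 start sites for the 6 genes, some with overlapping windows. The half-site, sought on both strands, was in 8 of these 20 windows (40%), which belong to 5 of the 6 genes (all but PRKAR2B), and in 23.2% of 35116 windows of all genes. The full element was in 2 windows, both of PRKAR1A and overlapping, and in 1.84% of all windows. These matches describe the letters in the windows and no binding was measured.

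NAT10 mRNA was lower under the sgNAT10 label in 143B, at 9.05 and 7.19 FPKM in sgNAT10 libraries against 16.06 and 19.95 FPKM in NC libraries (log2 change -1.06, SE 0.31, limma adjusted p = 0.026). An adjusted p under 0.05 was the threshold for a call. This call ended under median-ratio scaling (-0.80, adjusted p = 0.061), without sgNAT10 replicate 1 (adjusted p = 0.11), without sgNAT10 replicate 2 (adjusted p = 0.22) and without NC replicate 2 (adjusted p = 0.064). In HOS the libraries labelled sgNAT10 held 21.13 and 19.14 FPKM of NAT10 mRNA and the NC libraries 14.86 and 16.22 FPKM (log2 change 0.35, SE 0.10, adjusted p = 0.0054; without sgNAT10 replicate 1 adjusted p = 0.18). That call was also lost under median-ratio scaling (0.14, adjusted p = 0.26) and quantile normalization (0.20, adjusted p = 0.090), and the value was -0.13 after length and GC correction, so the HOS directions below are those between libraries as labelled. Many genes moved: the median log2 change over all genes tested was -0.25 in 143B and 0.19 in HOS, and median-ratio scaling, which centres them, brought these to -0.01 in both lines. Of the bone markers, SP7, BGLAP and IBSP were listed in neither line, and COL1A1 stood at 1.32 to 5.44 FPKM in the 143B libraries and at 313.7 to 421.1 FPKM in the HOS libraries. The 7 of 11 osteoblast markers listed in 143B summed to 487.2 and 773.2 FPKM in sgNAT10 libraries, against 1361 and 1774 FPKM in NC libraries, and the 8 listed in HOS to 1502 and 1440 FPKM in libraries labelled sgNAT10, against 1119 and 1301 FPKM in NC libraries. VIM, a general mesenchymal gene, held 481.5 to 1741 FPKM of these sums in 143B and 715.7 to 928.7 FPKM in HOS, and the part of these markers in the results was not tested. Of 7 blood cell markers, 2 were listed in each line, the myeloid genes CD68 and CD14, and PTPRC, CD3E, HBB and ITGAM were not. CD68 held 50.22 and 45.61 FPKM in 143B sgNAT10 libraries, against 126.4 and 103.0 FPKM in 143B NC libraries (log2 change -1.24, SE 0.24, adjusted p = 0.0055), and CD14 held 0.08 and 0.00 FPKM in 143B sgNAT10 libraries, against 2.06 and 1.45 FPKM in 143B NC libraries (log2 change -1.40, SE 0.19, adjusted p = 0.0018). The 2 summed to 18.65 and 17.98 FPKM in HOS libraries labelled sgNAT10, against 16.70 and 17.30 FPKM in HOS NC libraries, and their part in the results was not tested.

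The regulatory subunit PRKAR2A, the RII alpha chain that docks PKA on anchoring proteins, was the member whose level stood furthest apart between the groups. Its locus is on the minus strand of chromosome 3 (48744597 to 48847846, GRCh38). In 143B, PRKAR2A reached 105.2 and 117.3 FPKM in sgNAT10 libraries, against 8.80 and 11.88 FPKM in the NC libraries. Both sgNAT10 libraries lay far above both NC libraries, and the ratio of the means was 10.8 (log2 change 3.32, SE 0.26). HOS cells had 19.39 and 19.26 FPKM in libraries labelled sgNAT10, against 9.74 and 10.90 FPKM in NC libraries. Again the groups did not overlap, and the ratio of the means was 1.87 (log2 change 0.85, SE 0.10). The log2 change was 2.47 larger in 143B than in HOS (SE 0.28), and averaged over the lines it was 2.08 (SE 0.14). Under median-ratio scaling the log2 changes were 3.59 in 143B and 0.63 in HOS. Among all listed genes PRKAR2A ranked at the 93.3rd and 93.7th percentile in the 143B sgNAT10 libraries, against the 60.6th and 60.8th in the 143B NC libraries. An antisense gene, PRKAR2A-AS1, overlaps it by 275 bases and was not among the listed genes, and since no source used here says whether the counting used strand, reads of the pair could not be told apart.

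**Figure D1:**
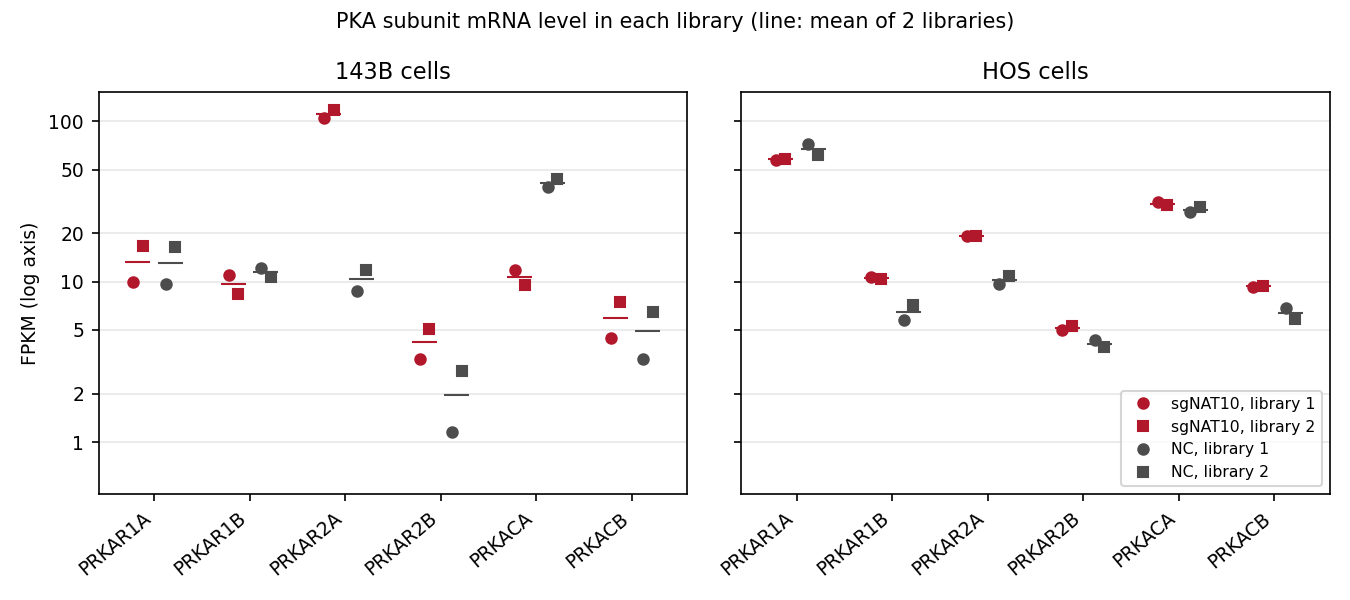
FPKM (log axis) of the 6 PKA subunit genes in each of the 8 libraries, with 143B on the left and HOS on the right, libraries labelled sgNAT10 in red left of NC in grey, and a line at the mean of each 2 libraries. PRKAR2A in 143B lies at 105.2 and 117.3 FPKM in sgNAT10 libraries and at 8.80 and 11.88 FPKM in NC libraries, and PRKACA in 143B lies lower in sgNAT10 libraries than in NC libraries.

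PRKAR2B, the RII beta chain that prevails in brain and fat, was the least abundant regulatory subunit in every library of both lines. 143B libraries held 3.30 and 5.08 FPKM under sgNAT10 and 1.15 and 2.79 FPKM under NC (log2 change 0.84, SE 0.38). These groups did not overlap, though the spread within each was wide, and the log2 change ran from 0.43 without NC replicate 1 to 1.25 without NC replicate 2. HOS cells had 5.01 and 5.31 FPKM in libraries labelled sgNAT10, against 4.33 and 3.89 FPKM in NC libraries, a log2 change of 0.27 (SE 0.11, adjusted p = 0.040). That call ended without sgNAT10 replicate 1 (adjusted p = 0.14), without sgNAT10 replicate 2 (adjusted p = 0.26) and without NC replicate 2 (adjusted p = 0.095). Median-ratio scaling gave a log2 change of 0.08 (adjusted p = 0.56) and quantile normalization -0.03.

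The type I chains behaved otherwise. PRKAR1A, the RI alpha chain whose inactivating mutations cause Carney complex, stood in 143B at 9.90 and 16.72 FPKM in sgNAT10 libraries, against 9.66 and 16.42 FPKM in NC libraries (log2 change 0.03, SE 0.37). The groups overlapped almost fully, and the libraries numbered 2 held more than those numbered 1 under both labels. In HOS, PRKAR1A was the most abundant member, at 57.26 and 58.64 FPKM in libraries labelled sgNAT10 and at 72.36 and 62.01 FPKM in NC libraries. The libraries labelled sgNAT10 lay below both NC libraries, but the log2 change of -0.21 (SE 0.09) missed the threshold (adjusted p = 0.062). It passed without NC replicate 2 (log2 change -0.32, adjusted p = 0.0013), with length and GC content corrected for (-0.27, adjusted p = 0.0048) and under median-ratio scaling (-0.43, adjusted p = 0.00063). Rescaling the libraries to a common sum instead gave a log2 change of 0.0034 (adjusted p = 0.98).

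PRKAR1B, the RI beta chain known mainly from neurons, stood in 143B at 11.01 and 8.36 FPKM in sgNAT10 libraries, against 12.21 and 10.64 FPKM in NC libraries (log2 change -0.23, SE 0.32). The groups overlapped, and the value was 0.49 after length and GC correction. In HOS it rose to 10.77 and 10.45 FPKM in libraries labelled sgNAT10, against 5.74 and 7.13 FPKM in NC libraries (log2 change 0.65, SE 0.11, adjusted p = 0.000101). This call held without any single library and under every scaling tried, with a log2 change of 0.37 under quantile normalization. The PRKAR1B locus on chromosome 7 (549197 to 727650, minus strand) shares 950 bases with DNAAF5, a dynein assembly factor on the opposite strand. DNAAF5 held 5.48 and 9.07 FPKM in 143B sgNAT10 libraries, against 30.08 and 41.76 FPKM in 143B NC libraries, and 36.44 and 34.84 FPKM in HOS libraries labelled sgNAT10, against 26.60 and 26.84 FPKM in HOS NC libraries. The part of DNAAF5 reads in the PRKAR1B values was not tested.

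PRKACA, the catalytic subunit that carries most PKA activity in many tissues, went the other way from PRKAR2A in 143B. It held 11.77 and 9.60 FPKM in sgNAT10 libraries, against 39.06 and 43.73 FPKM in NC libraries. All sgNAT10 values lay below all NC values, by 3.87-fold between the means (log2 change -1.86, SE 0.27; -1.59 under median-ratio scaling and -1.40 after correction for transcript length and GC content). In HOS it held 31.50 and 30.00 FPKM in libraries labelled sgNAT10 and 27.20 and 29.21 FPKM in NC libraries. These groups did not overlap either, with the sgNAT10 label on the higher side, but the log2 change of 0.12 (SE 0.09) did not pass the threshold (adjusted p = 0.26). The HOS direction depended on the scaling, with -0.10 under median-ratio scaling, -0.13 after length and GC correction, and 0.33 (adjusted p = 0.0038) after rescaling to a common sum. Its locus is on the minus strand of chromosome 19 (14091688 to 14118084).

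PRKACB, the other broadly expressed catalytic subunit, stood in 143B at 4.45 and 7.48 FPKM in sgNAT10 libraries, against 3.29 and 6.50 FPKM in NC libraries (log2 change 0.26, SE 0.41), with overlapping groups. As with PRKAR1A, the libraries numbered 2 were higher than those numbered 1 under both labels. In HOS it rose to 9.24 and 9.44 FPKM in libraries labelled sgNAT10, against 6.89 and 5.89 FPKM in NC libraries (log2 change 0.49, SE 0.11, adjusted p = 0.00091). The HOS call held without any single library but was lost under quantile normalization (log2 change 0.20, adjusted p = 0.12). The third catalytic gene, PRKACG, was not among the listed genes.

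**Figure D2:**
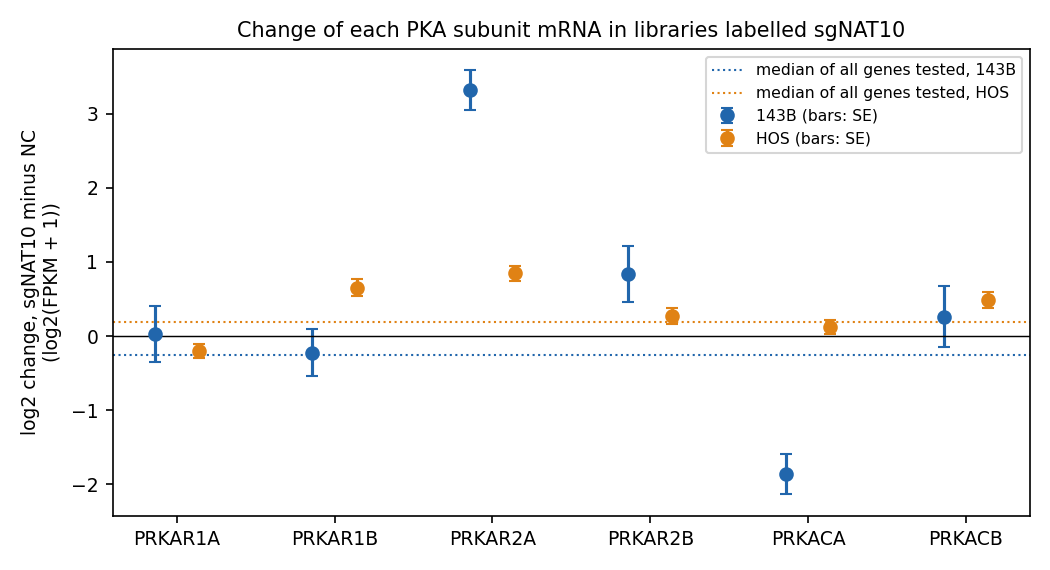
Log2 change (sgNAT10 minus NC, log2(FPKM + 1)) of each PKA subunit gene in 143B (blue) and HOS (orange), with bars of 1 standard error from the fit over all genes and dotted lines at the median change of all genes tested. PRKAR2A is above 0 in both lines (3.32 in 143B and 0.85 in HOS), whereas PRKACA is at -1.86 in 143B and 0.12 in HOS.

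Counted over the family in 143B, 3 of the 6 members had groups that did not overlap, as had 66.8% of all 11419 genes tested there. The 143B values chose the family, so nothing is read from this count. In HOS, PRKAR2A entered the choice too, and the other 5 members are counted without it. Of these, 3 passed (60%), all higher under the sgNAT10 label (PRKAR1B, PRKACB and PRKAR2B), where over all 11957 genes tested in HOS 68.5% passed, 45.5% higher and 23% lower. Quantile normalization left 1 of them, PRKAR1B. None of the 5 had overlapping groups, and 83.1% of all genes had none either. The median log2 change of the 6 members was 0.14 in 143B and 0.38 in HOS (0.27 without PRKAR2A), beside -0.25 and 0.19 over all genes.

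The make-up of the regulatory subunit mRNA differed with the label in both lines. In 143B the type II chains made up 83.8% and 83.0% of the summed regulatory FPKM in sgNAT10 libraries, against 31.3% and 35.2% in NC libraries. In HOS they made up 26.4% and 26.2% in libraries labelled sgNAT10, against 15.3% and 17.6% in NC libraries. The other 3 regulatory genes summed to 24.2 and 30.2 FPKM in 143B sgNAT10 libraries, against 23.0 and 29.9 FPKM in 143B NC libraries. The summed regulatory FPKM stood at 8.0 and 8.6 times the summed catalytic FPKM in 143B sgNAT10 libraries, against 0.75 and 0.83 times in 143B NC libraries. In HOS this ratio was 2.27 and 2.37 in libraries labelled sgNAT10 and 2.70 and 2.39 in NC libraries, with little between the groups. PRKACA made up 72.6% and 56.2% of the catalytic FPKM in 143B sgNAT10 libraries, against 92.2% and 87.1% in 143B NC libraries. In HOS its share was 77.3% and 76.1% in libraries labelled sgNAT10, against 79.8% and 83.2% in NC libraries. Such shares do not depend on a scaling factor common to all genes of a library. Quantile normalization and length and GC correction shift genes against each other, and the shares were not computed under them. The shares are of mRNA and say nothing of the amount of protein. They include the values that chose the family and are given without a test.

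**Figure D3:**
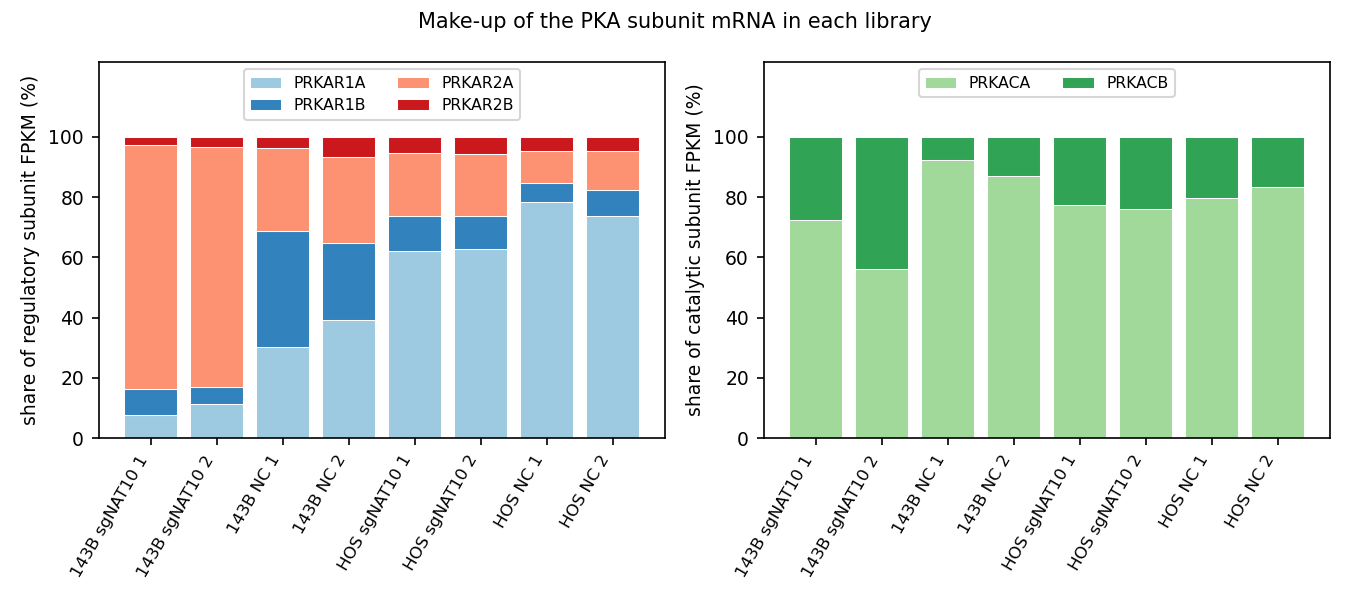
Share (%) of each gene in the summed FPKM of the 4 regulatory subunits (left) and of the 2 catalytic subunits (right), with 1 bar per library. PRKAR2A takes 81.3% and 79.5% of the regulatory mRNA in 143B sgNAT10 libraries, and PRKAR1A is the main regulatory chain in all HOS libraries.

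In the control libraries alone, the lines differed in which regulatory chain led. PRKAR1A made up 34.9% ± 6.4 of the regulatory FPKM in 143B NC cells and 76.2% ± 3.3 in HOS NC cells (SD, n = 2 each). PRKAR1B took 31.9% ± 9.1 in 143B NC cells and 7.36% ± 1.60 in HOS NC cells, and PRKAR2A took 28.1% ± 0.6 in 143B NC cells and 11.8% ± 1.7 in HOS NC cells. By FPKM, PRKACA led in 143B NC cells, then came PRKAR1A, PRKAR1B and PRKAR2A with overlapping ranges, then PRKACB and last PRKAR2B. In HOS NC cells PRKAR1A led, followed by PRKACA and PRKAR2A, then PRKAR1B and PRKACB with overlapping ranges, and last PRKAR2B. Under the sgNAT10 label PRKAR2A led in 143B, ahead of PRKAR1A, PRKACA and PRKAR1B, whose ranges overlapped, while in HOS the order began as in the controls with PRKAR1A, PRKACA and PRKAR2A. The regulatory-to-catalytic ratio was 0.79 ± 0.06 in 143B NC cells and 2.55 ± 0.22 in HOS NC cells, and PRKACA made up 89.6% ± 3.7 and 81.5% ± 2.4 of the catalytic FPKM in the same order of lines. Neither line's libraries overlapped the other's in the PRKAR1A share, the PRKAR2A share, the ratio or the PRKACA share. An exact two-sided permutation test of 2 against 2 libraries can give no p below 0.33, so nothing is read from it. The shares and the ratio include values that chose the family, and these differences between the lines are descriptions.

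The PKA inhibitor PKIG, a small protein that blocks free catalytic subunits, fell in both lines. PKIG held 14.68 and 11.68 FPKM in 143B sgNAT10 libraries, against 51.41 and 48.56 FPKM in 143B NC libraries (log2 change -1.85, SE 0.26, limma adjusted p = 0.0020). HOS cells had 20.73 and 22.11 FPKM in libraries labelled sgNAT10, against 34.21 and 36.21 FPKM in NC libraries (log2 change -0.69, SE 0.09, adjusted p = 8.23e-06). Per catalytic FPKM, PKIG stood at 0.91 and 0.68 in 143B sgNAT10 libraries, against 1.21 and 0.97 in 143B NC libraries, and at 0.51 and 0.56 in HOS libraries labelled sgNAT10, against 1.0 and 1.03 in HOS NC libraries. PKIA, another member of the inhibitor family, stood at 1.28 and 1.25 FPKM in HOS libraries labelled sgNAT10, against 0.07 and 0.11 FPKM in HOS NC libraries (log2 change 1.06, SE 0.11, adjusted p = 5.49e-07). In HOS it reached the 1 FPKM needed for a test only in libraries labelled sgNAT10, which fixed its direction. PKIA stood at 1.5 and 2.92 FPKM in 143B sgNAT10 libraries, against 1.24 and 2.89 FPKM in 143B NC libraries (log2 change 0.08, SE 0.36, adjusted p = 0.87). PRKX, a kinase related to the catalytic subunits, rose in HOS (log2 change 0.63, SE 0.11, adjusted p = 0.000129), where length and GC correction ended the call (0.14, adjusted p = 0.18), and its change of 0.52 in 143B did not pass (SE 0.26, adjusted p = 0.14). The 143B value turned on single libraries, at 0.80 without NC replicate 2 (adjusted p = 0.011) and 0.23 without NC replicate 1 (adjusted p = 0.51), and it passed under median-ratio scaling (0.68, adjusted p = 0.0066).

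Among the other genes of the cAMP pathway, falls outnumbered rises in 143B and rises outnumbered falls in HOS, as they also did over all genes. Of 80 tested in 143B, 9 rose and 28 fell, with a median log2 change of -0.54, where over all genes 38.3% passed, 12.9% higher and 25.4% lower. Of 83 tested in HOS, 59 rose and 10 fell, with a median of 0.56, beside the shares of 45.5% higher and 23% lower over all genes. In 143B the count of 37 was 25 without sgNAT10 replicate 1 and 20 without sgNAT10 replicate 2, as the count over all genes also dropped, to 2360 and 1995 calls from 4370 with all libraries. The balance of directions moved with the scaling, to 13 higher and 28 lower in 143B and 46 higher and 14 lower in HOS under median-ratio scaling, and to 3 higher and 33 lower in 143B with a common sum. The change differed between the lines for 48 of 72 genes tested in both, 43 of them with the 143B change below the HOS change and 5 above, where 49.1% of all 10655 genes passed this test. The lists were chosen with results of these data known, so their counts are descriptions.

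**Figure D4:**
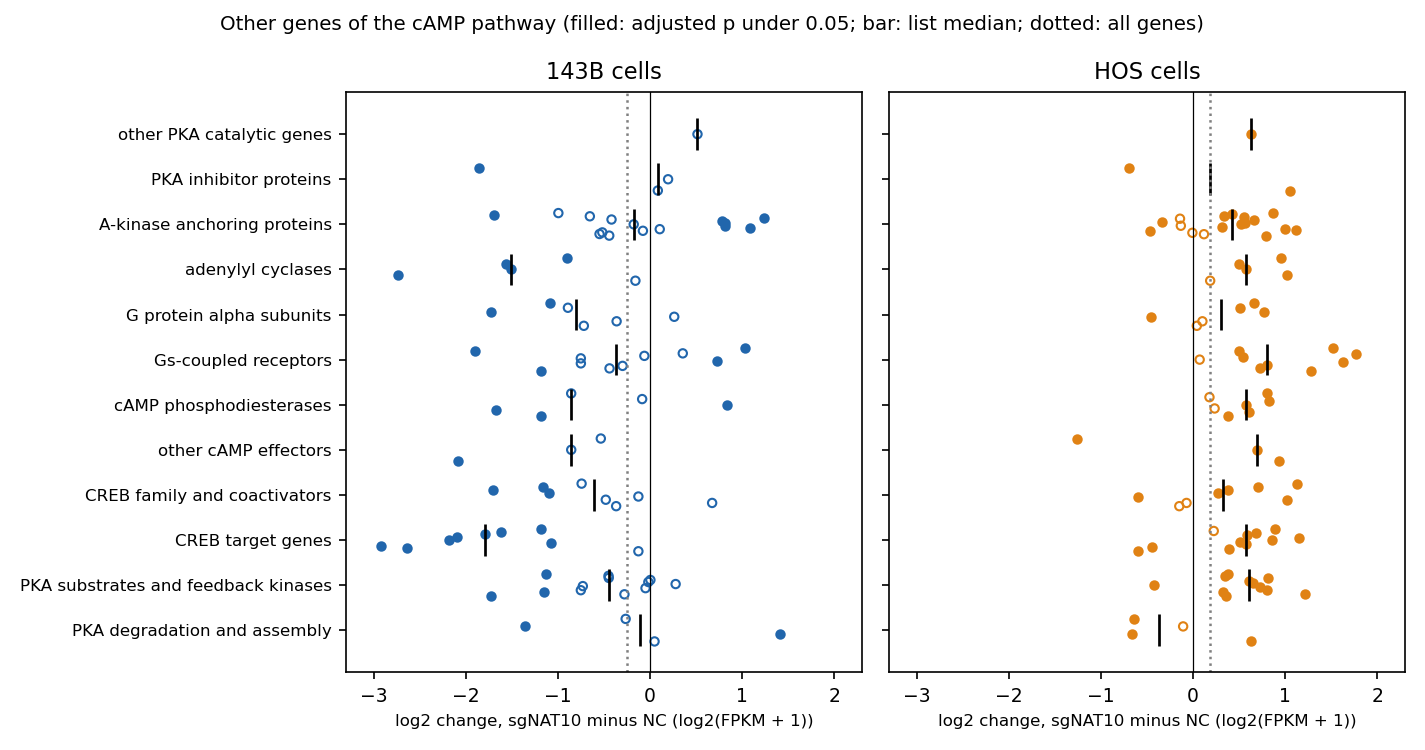
Log2 change (sgNAT10 minus NC, log2(FPKM + 1)) of each tested gene in 12 lists of the cAMP pathway, with 143B on the left and HOS on the right. Filled points passed the threshold, short bars mark list medians and dotted lines the median of all genes, and the CREB target genes have medians of -1.79 in 143B and 0.57 in HOS.

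Upstream of PKA, the adenylyl cyclases, which make cAMP, fell in 143B (4 of 5 tested, 0 higher) and rose in HOS (4 of 5 tested, 0 lower). ADCY3 had 1.73 and 2.18 FPKM in 143B sgNAT10 libraries, against 17.28 and 20 FPKM in 143B NC libraries (log2 change -2.73, SE 0.33, adjusted p = 0.0013), and 16.82 and 15.15 FPKM in HOS libraries labelled sgNAT10, against 7.15 and 7.55 FPKM in HOS NC libraries (log2 change 1.02, SE 0.11, adjusted p = 4.81e-07). The other 3 called in 143B, ADCY6, ADCY7 and ADCY9, changed by -1.52, -1.56 and -0.90, and each lost its call without sgNAT10 replicate 1 (adjusted p = 0.059, 0.084 and 0.12) and without sgNAT10 replicate 2 (adjusted p = 0.067, 0.094 and 0.14), which left 1 call in the list. ADCY6 and ADCY9 reached the 1 FPKM needed for a test in 143B only in NC libraries, which fixed their direction. After length and GC correction the 143B list median went from -1.52 to -0.79, and ADCY9 lost its call (-0.46, adjusted p = 0.065). In HOS, ADCY6 turned to -0.14 after length and GC correction, and ADCY7 lost its call after that correction (0.14, adjusted p = 0.15) and under quantile normalization (0.21, adjusted p = 0.10).

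Among the G protein alpha subunits, which couple receptors to the cyclases, 2 of 6 tested fell and 0 rose in 143B, and 3 rose and 1 fell of 6 in HOS. The list was not split by whether a chain stimulates or inhibits the cyclases, so its counts give no direction for cAMP. In 143B, GNAZ reached the 1 FPKM needed for a test only in NC libraries. Length and GC correction ended its call (log2 change -0.37, limma adjusted p = 0.098). The 143B falls, GNAO1 and GNAZ, both lost their calls without sgNAT10 replicate 2 (adjusted p = 0.086 and 0.058), where 1 other gene of the list fell, and there were 3 falls without sgNAT10 replicate 1 and without NC replicate 1. GNAS, the stimulatory subunit, rose to 1424 and 1342 FPKM in HOS libraries labelled sgNAT10, against 833.2 and 913.0 FPKM in HOS NC libraries (log2 change 0.66, SE 0.08, adjusted p = 2.51e-06). 143B libraries held 356.5 and 759.1 FPKM under sgNAT10 and 835.3 and 1118 FPKM under NC, which did not pass (log2 change -0.89, SE 0.38, adjusted p = 0.095). Of the receptors that signal through it, 2 rose and 2 fell of 10 in 143B, and 8 rose of 9 in HOS. In 143B only 1 rise was left without sgNAT10 replicate 1 and without sgNAT10 replicate 2, where GIPR, a receptor for an incretin hormone, lost its call (adjusted p = 0.14 and 0.060). VIPR1, a receptor for vasoactive intestinal peptide, had 1.25 and 1.23 FPKM in 143B sgNAT10 libraries, against 6.64 and 8.20 FPKM in 143B NC libraries (log2 change -1.90, SE 0.32, adjusted p = 0.0032), and 8.31 and 7.05 FPKM in HOS libraries labelled sgNAT10, against 1.98 and 2.07 FPKM in HOS NC libraries (log2 change 1.52, SE 0.12, adjusted p = 2.25e-08). ADORA2A, an adenosine receptor, changed the same ways, by -1.18 in 143B (adjusted p = 0.0046) and by 1.28 in HOS (adjusted p = 9.31e-08). In 143B, ADORA2A reached the 1 FPKM needed for a test only in NC libraries.

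The A-kinase anchoring proteins, the docking partners of the type II chains, were mixed in 143B, with 5 higher and 1 lower of 15, and mostly higher in HOS, with 11 higher and 2 lower of 17. In 143B the count of rises moved with single libraries, to 2 without sgNAT10 replicate 1 and 0 without sgNAT10 replicate 2, and a common sum left 1, while without NC replicate 1 the falls numbered 6. In HOS 1 fall was left without sgNAT10 replicate 1, sgNAT10 replicate 2 or NC replicate 1. AKAP5, which tethers PKA near the plasma membrane, had 1.95 and 2.47 FPKM in 143B sgNAT10 libraries, against 0.43 and 0.59 FPKM in 143B NC libraries (log2 change 1.09, SE 0.22, adjusted p = 0.0066; adjusted p = 0.060 without sgNAT10 replicate 2). EZR, which links membranes to actin, rose by 1.24 in 143B (SE 0.29, adjusted p = 0.011; adjusted p = 0.10 without sgNAT10 replicate 2). RAB32, a small GTPase that anchors PKA at mitochondria, had 4.52 and 6.22 FPKM in 143B sgNAT10 libraries, against 18.09 and 20.86 FPKM in 143B NC libraries (log2 change -1.69, SE 0.32, adjusted p = 0.0047). In HOS, AKAP13 rose to 14.78 and 13.62 FPKM in libraries labelled sgNAT10, against 5.67 and 6.33 FPKM in NC libraries (log2 change 1.12, SE 0.11, adjusted p = 2.47e-07).

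The phosphodiesterases, which break down cAMP, gave 1 rise and 2 falls of 5 in 143B and 5 rises of 7 in HOS. PDE4B had 0.26 and 0.43 FPKM in 143B sgNAT10 libraries, against 1.91 and 5.28 FPKM in 143B NC libraries (log2 change -1.67, SE 0.35, adjusted p = 0.0071). PDE4B reached the 1 FPKM needed for a test in 143B only in NC libraries. PDE4C, the gene that rose in 143B, reached it there only in sgNAT10 libraries. Under median-ratio scaling the 143B list had 3 rises and 3 falls of 7, and its median log2 change went from -0.86 to 0.10. PDE8A rose to 23.61 and 22.18 FPKM in HOS libraries labelled sgNAT10, against 13.28 and 12.12 FPKM in HOS NC libraries (log2 change 0.80, SE 0.10, adjusted p = 3.33e-06). Without sgNAT10 replicate 2, only 1 call was left in this list in 143B, a fall, and without sgNAT10 replicate 1 there was also 1 fall. The other cAMP effectors gave 1 fall of 3 in 143B and 2 rises and 1 fall of 3 in HOS, with 2 falls in 143B without NC replicate 1. HCN2, a channel gated by cyclic nucleotides, fell in 143B (log2 change -2.09, SE 0.35, adjusted p = 0.0032) and rose in HOS (0.70, SE 0.12, adjusted p = 5.3e-05).

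Downstream, the CREB target genes fell in 143B, with 8 of 9 tested lower and 0 higher, where 25.4% of all genes were lower. In HOS 8 rose and 2 fell of 11, where 45.5% of all genes were higher. FOS, FOSB and PTGS2 reached the 1 FPKM needed for a test in 143B only in NC libraries. NR4A2, SIK1 and PTGS2 reached it in HOS only in libraries labelled sgNAT10. AREG was listed in 143B but not tested, at 1.21 and 0.85 FPKM in sgNAT10 libraries, against 0.34 and 0.28 FPKM in NC libraries. The 143B median log2 change of -1.79 ran from -2.01 to -1.74 when 1 library was left out. FOS, an immediate early gene, had 0.00 and 0.21 FPKM in 143B sgNAT10 libraries, against 6.48 and 8.33 FPKM in 143B NC libraries (log2 change -2.93, SE 0.28, adjusted p = 0.00095), and it also fell in HOS, to 12 and 12.35 FPKM in libraries labelled sgNAT10, against 17.30 and 16.70 FPKM in NC libraries (log2 change -0.45, SE 0.10, adjusted p = 0.00075). DUSP1, a phosphatase of MAP kinases, had 9.40 and 17.21 FPKM in 143B sgNAT10 libraries, against 82.89 and 87.38 FPKM in 143B NC libraries (log2 change -2.65, SE 0.31, adjusted p = 0.0013). NR4A1, an orphan nuclear receptor, fell by 2.09 on the log2 scale in 143B (SE 0.34, adjusted p = 0.0029) and rose by 0.86 in HOS (SE 0.13, adjusted p = 1.7e-05). These genes also answer to growth factors and stress, and PKA activity was not measured.

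The CREB family and its coactivators gave 3 falls of 8 in 143B and 5 rises and 1 fall of 8 in HOS. Under median-ratio scaling HOS had 3 rises and 2 falls, and the HOS median log2 change went from 0.33 to 0.12. After length and GC correction the HOS median was 0.0056, and CRTC1 lost its call in 143B (-0.32, adjusted p = 0.16). CRTC2, a coactivator that PKA signalling brings into the nucleus, had 15.17 and 11.53 FPKM in 143B sgNAT10 libraries, against 46.83 and 44.03 FPKM in 143B NC libraries (log2 change -1.71, SE 0.27, adjusted p = 0.0028), and 45.65 and 43.66 FPKM in HOS libraries labelled sgNAT10, against 32.55 and 35.45 FPKM in HOS NC libraries (log2 change 0.38, SE 0.09, adjusted p = 0.0015). The other calls in 143B, CRTC1 (log2 change -1.10) and CRTC3 (-1.16), were both lost without sgNAT10 replicate 1 (adjusted p = 0.17 and 0.23) and without sgNAT10 replicate 2 (adjusted p = 0.35 and 0.12), which left 1 fall each time, and without NC replicate 1 there were 5. In HOS 3 rises were left without sgNAT10 replicate 1, and without NC replicate 2 the falls numbered 3. EP300 and CREBBP, the acetyltransferases that phosphorylated CREB recruits, rose in HOS by 1.13 and 1.02 (SE 0.12 and 0.11; adjusted p = 4.42e-07 and 7.51e-07). The PKA substrates and feedback kinases gave 3 falls of 12 in 143B, led by GSK3A (log2 change -1.73, SE 0.29, adjusted p = 0.0032). In HOS they gave 10 rises and 1 fall of 11, led by GSK3B (1.22, SE 0.10, adjusted p = 6.78e-08). Under median-ratio scaling 1 fall was left in 143B, where VASP (adjusted p = 0.10) and LASP1 (adjusted p = 0.079) lost their calls. HOS then had 6 rises and 1 fall, and 7 rises and 3 falls after length and GC correction. The 143B falls numbered 5 without NC replicate 1 and 2 without sgNAT10 replicate 1, where VASP lost its call (adjusted p = 0.071). Of the genes for PKA turnover and assembly, 1 rose and 1 fell of 4 in 143B, and 1 rose and 2 fell of 4 in HOS. In 143B the gene that fell, PJA1, missed the threshold when sgNAT10 replicate 1 was left out (adjusted p = 0.23), as did HSP90AA1, the one that rose, when sgNAT10 replicate 2 was (adjusted p = 0.073). PJA2, the ubiquitin ligase that degrades regulatory subunits, fell in HOS to 20.39 and 20.32 FPKM in libraries labelled sgNAT10, against 37.81 and 27.48 FPKM in NC libraries (log2 change -0.64, SE 0.12, adjusted p = 0.000189), and stood in 143B at 1.85 and 3.11 FPKM under sgNAT10 and at 2.03 and 4.58 FPKM under NC (log2 change -0.26, SE 0.38, adjusted p = 0.62).

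The genes whose profile lay nearest to PRKAR2A were PTPN14, CAV1, DCP1A, PRR11 and HTD2. Nearness was the root mean square difference, over the 8 libraries, of log2(FPKM + 1) minus the NC mean of the same line, and it ran from 0.21 for PTPN14 to 0.31 for HTD2 among 10654 genes compared. PTPN14, a tyrosine phosphatase, had 26.32 and 38.46 FPKM in 143B sgNAT10 libraries, against 2.59 and 3.07 FPKM in 143B NC libraries, and 9.0 and 9.17 FPKM in HOS libraries labelled sgNAT10, against 3.67 and 3.55 FPKM in HOS NC libraries. CAV1, the main coat protein of caveolae, had 306.1 and 403.8 FPKM in 143B sgNAT10 libraries, against 24.36 and 40.93 FPKM in 143B NC libraries, and 205.3 and 219.9 FPKM in HOS libraries labelled sgNAT10, against 150.9 and 151.6 FPKM in HOS NC libraries. All 5 were thus higher under the sgNAT10 label in each line, with the larger change in 143B, which is what the choice by likeness selects.

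**Figure D5:**
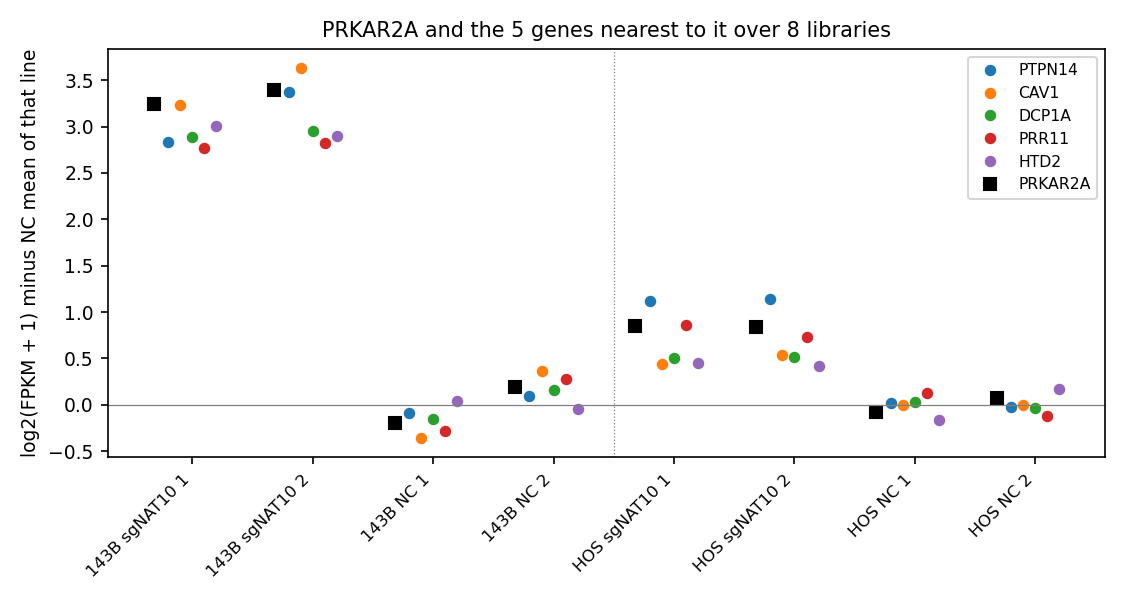
Log2(FPKM + 1) minus the NC mean of the same line for PRKAR2A (black squares) and the 5 genes nearest to it (coloured points), in each of the 8 libraries. In the 143B sgNAT10 libraries the 5 genes lie between 2.77 and 3.63, and in the HOS libraries labelled sgNAT10 between 0.42 and 1.14.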

How the data were processed

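Polyadenylated RNA was sequenced on a BGISeq-500 from 143B and HOS cells, 2 libraries per group, per the labels. The authors deposited FPKM values in 1 table per line. Bowtie2, RSEM, DESeq2 and GRCh38 are named in the submitters' processing notes, with no versions or roles. The deposited values carry at most 2 decimals (smallest value above 0, 0.01 FPKM), so single reads could not be recovered and depth is unknown; the listed FPKM summed to 484793 to 798137 per library. The members, lists and alternatives were chosen with earlier results of these data known.

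Genes reaching 1 FPKM in 2 or more of a line's 4 libraries were tested on log2(FPKM + 1) with limma 3.58.1 in R 4.3.3. The test was two-sided with an intensity trend, and p-values were adjusted by the Benjamini-Hochberg method (threshold 0.05). This scale understates the change of low genes. A gene below 1 FPKM in both libraries of a group could enter only through the other group, which fixed its direction. The p-value of such a gene does not test that direction. Among others, PKIA and GNAO1 in HOS, and AKAP5, GIPR and PDE4C in 143B, entered through libraries labelled sgNAT10 alone. FOS, PTGS2, PDE4B, ADORA2A, GNAZ, ADCY6, ADCY9, SIK2 and CD14 entered in 143B through NC libraries alone. Each line had its own fit (sgNAT10 minus NC), and a further fit over the 4 groups gave the mean and the difference of the lines. Levels of the 2 tables were set side by side only as descriptions or as ratios within a library. No p is given for members in 143B or over both lines, nor for PRKAR2A in HOS, because those values chose the family. The script was tested on simulated data.

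All 6 members are named, as are NAT10, DNAAF5 and the 5 genes nearest to PRKAR2A. From each pathway list, up to 4 called genes with the largest change in each line could be named, or the most abundant gene where none was called; 1 of the genes this rule picks is not reported here. Positions are from GENCODE v29 (GRCh38), matched by name for 97.9% of the 143B and 98% of the HOS genes. Alternatives were pseudocounts of 0.1 and 5, no filter, a filter at 5 FPKM, 3 scalings, no trend, a replicate block, length and GC correction (splines, 4 degrees of freedom) and leaving out each library.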

Additional observations from a re-analysis of the deposited data

Results flagged for a closer look

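PRKACA was set apart because its libraries labelled sgNAT10 lay below both NC libraries in 143B and above both in HOS. Groups did not overlap for 66.8% of all genes tested in 143B and 83.1% in HOS. The HOS change of 0.12 did not pass (limma adjusted p = 0.26). It turned to -0.10 under median-ratio scaling and to -0.13 after length and GC correction. The difference between the log2 changes of PRKACA, 143B minus HOS, was -1.98. This difference was not tested, because the 143B contrast chose the family.

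For 37 pathway genes described here, among 48 in all, the change in 143B differed from the change in HOS by the joint limma test (adjusted p below 0.05 over all genes). The values here are the log2 change in 143B minus that in HOS. Upstream of PKA they were -3.76 for ADCY3, -2.09 for ADCY6, -2.07 for ADCY7, -1.85 for ADCY9, -2.23 for GNAO1 and -1.56 for GNAS. Among receptors they were -3.42 for VIPR1 and -2.46 for ADORA2A. The inhibitor PKIG gave -1.16, although it fell in both lines. Among anchoring proteins the differences were -2.12 for RAB32, -1.86 for WASF1, -1.24 for AKAP1, -1.20 for AKAP13, 0.77 for AKAP5 and 1.38 for EZR. The phosphodiesterases gave -1.79 for PDE4A, -1.91 for PDE4B and -1.66 for PDE8A, and the channel HCN2 gave -2.78. Among CREB coactivators they were -1.37 for CRTC1, -2.09 for CRTC2, -1.87 for CRTC3, -1.51 for CREBBP and -1.87 for EP300. The CREB target genes gave -2.47 for FOS, -2.70 for JUNB, -3.03 for DUSP1, -2.95 for NR4A1 and -2.30 for PTGS2. Among substrates and feedback kinases they were -2.09 for GSK3A, -1.50 for GSK3B, -1.47 for LASP1, -1.51 for VASP, -1.26 for SIK2 and -1.45 for PHKA1. The turnover and assembly genes gave -1.25 for PJA1 and 2.07 for HSP90AA1. Of these genes, ADCY6, ADCY9, ADORA2A, PDE4B, FOS, PTGS2, SIK2 and AKAP5 in 143B entered the test through 1 group alone. So did GNAO1 and PTGS2 in HOS. That fixed the direction of their change in that line, and the test of the difference does not allow for it. Over all genes tested in both lines, 49.1% passed the same test.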

How the results depend on the processing

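In 143B, 4370 genes were called with all libraries, 7652 with the replicate block, 7046 with the block and length and GC correction, and 1995 to 5067 when 1 library was left out. Pathway genes called there were 37, with 21 under a filter at 5 FPKM, which tested fewer genes, 57 with the replicate block and 20 to 49 without 1 library. Members past the threshold in 143B, a count on values that chose the family and no test of it, were 2. They were 4 after length and GC correction, with or without the block. Calls over all genes also rose there, from 4370 of 11419 to 6183 of 11224 without the block and 7046 with it. In HOS, of the 5 members other than PRKAR2A, 3 passed the threshold, and 1 under quantile normalization. Calls over all genes in HOS were 8195 of 11957, and 7696 under quantile normalization. With the block the adjusted p of PRKAR2B in HOS was 0.057. Over all genes, 1473 calls were higher and 2897 lower in 143B (2413 and 2512 under median-ratio scaling), and 5444 higher and 2751 lower in HOS (3728 and 4050). Directions turned in HOS for PRKAR1A (0.0034 with a common sum), PRKAR2B (-0.030 under quantile normalization), PRKACA (-0.10 under median-ratio scaling), and after length and GC correction, with or without the block, for PRKACA (-0.13), NAT10 (-0.13) and ADCY6 (-0.14). Directions also turned in 143B for PRKAR1A (-0.28 with a common sum, -0.32 without sgNAT10 replicate 2 and -0.33 without NC replicate 1). PRKAR1B turned there too (0.03 under median-ratio scaling, 0.15 under quantile normalization and 0.49 after length and GC correction). So did PRKACB (-0.02 with a common sum, -0.05 after length and GC correction, -0.06 without sgNAT10 replicate 2 and -0.14 without NC replicate 1). The cause was not tested. PRKAR2A was above 0 in both lines under every alternative run, from 2.93 to 3.59 in 143B and from 0.63 to 1.04 in HOS. Deviations of same-numbered libraries correlated at 0.61 over genes in 143B and at -0.11 in HOS; with 2 pairs a line, the numbers were not taken as pairs. Pairing the HOS libraries crosswise called 8458 genes, 70 pathway genes and 4 of the 5 members other than PRKAR2A. This pairing and the block with the correction were chosen after seeing the data. Of the values of single genes under an alternative, 523 of 586 in 143B and 728 of 769 in HOS kept direction and side of the threshold, or stayed within the spread of replicates. Depth is unknown, so no limit for low values is given.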

Other observations

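In 143B, the library numbered 2 held more mRNA than the library numbered 1 under both labels for PRKAR1A, PRKAR2A, PRKAR2B and PRKACB, whose transcripts have a GC content of 48.0%, 49.3%, 40.5% and 36.5% (the median over coding transcripts). For PRKAR1B, at 62.8% GC, the library numbered 2 held less under both labels, and for PRKACA, at 55.8% GC, it held less under sgNAT10 and more under NC.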
